A study of Mus musculus with 8 samples.

Results

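Autophagy delivers parts of the cell to the lysosome for breakdown, and its genes were described here across liver RNA of mice that lacked pyruvate carboxylase in hepatocytes. The group held 36 genes named by symbol, out of 35275 genes in the deposited tables. They were 4 genes of the ULK kinase complex, 2 of the PI3-kinase complex, 5 of membrane supply and lipid transfer, 10 of the ubiquitin-like conjugation machinery, the 5 Atg8 family genes, 4 cargo receptors and 6 genes of the lysosomal membrane and lumen. All 36 symbols matched 1 row each, and all 36 passed the filter on low counts.

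The mice were males aged 9 weeks whose strain the labels give as C57BL/6, bred from a C57BL/6NTac line that carried the Pcx allele, and every mouse had been without food for 24 h before the liver was taken. The 4 Pcx L-/- mice carried Pcx alleles with a floxed exon 10 together with Albumin-Cre. The paper describes the deletion as specific to hepatocytes, and whether other cells of the liver kept the gene was not measured here. The 4 control mice were Pcx f/f littermates without that deletion, which the labels call WT, so the floxed alleles were common to both genotypes. No fed mice and no Albumin-Cre mice without floxed alleles were analysed here. Each mouse gave 1 library of whole liver. The question was which genes of the pathway differed in fasted liver when Pcx was missing.

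In autophagy, the ULK kinase starts the process when nutrients are short, and the PI3-kinase complex marks the membrane from which the autophagosome grows. Lipid transfer proteins expand this membrane, and a pair of ubiquitin-like conjugation systems attach the small Atg8 proteins to it. Cargo receptors bind both the cargo and the Atg8 proteins, and the closed autophagosome fuses with the lysosome, where cathepsins and other hydrolases digest the contents. The fasted liver is a classical setting of autophagy, which frees amino acids and lipids. These steps are largely controlled at the level of proteins and membranes, and the values below are RNA levels.

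Reads counted on genes came to between 12016242 and 20023108 per library. Pcx was at 3.60% of its control level in the Pcx L-/- libraries, and its log2 fold change was -4.80. Hepatocyte markers were the most abundant of the marker lists in every library. Of these 10 markers 4 were called lower in Pcx L-/- liver, beside 13.5% of all genes tested. The log2 fold changes of all 10 markers lay between -1.19 and -0.29, with a median of -0.60. Their summed normalized count was between 1873272 and 2280590 in control mice and between 1084958 and 1647229 in Pcx L-/- mice. Pcx L-/- replicate 1 stood apart from the other 3 mice of its group, since it was the Pcx L-/- mouse nearest to the controls in 74.8% of the 3632 genes called. Its summed count of red blood cell genes was 69339, against 4749 to 16720 in the control mice. In whole liver, fewer cells of a type and less RNA per cell cannot be told apart.

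The autophagy and lysosome genes did not move in a single direction. Of the 36 genes, 4 were higher in Pcx L-/- liver, which were Ctsl, Sqstm1, Gabarapl1 and Atg12, and 11 were lower, which were Bnip3, Wipi1, Atg2a, Bnip3l, Lamp2, Ulk1, Atg16l1, Atg5, Lamp1, Map1lc3b and Ulk2. The test was edgeR's quasi-likelihood test with a Benjamini-Hochberg adjusted p under 0.05 over 13168 genes. Among all genes tested 27.6% were called, 14.1% as higher and 13.5% as lower, against 41.7% of the 36. The 36 genes were chosen with earlier results of these data known. By mean control FPKM each of them but Atg10 lay above at least 50% of the genes tested. No allowance was made for level, so these shares are not a test of the pathway. The median log2 fold change was -0.16 over the 36 genes and -0.0052 over all genes tested. The change was at least 2-fold in 3 genes, namely Ctsl, Bnip3 and Wipi1. In 14 of the 36 genes the values of the genotypes did not overlap, 5 of them higher and 9 lower, while 27.6% of all genes tested did not overlap, 15.1% higher and 12.5% lower. Without Pcx L-/- replicate 1 the counts were 4 higher and 15 lower, beside 16.7% and 17.8% of all genes (34.5% in all). Without the 3 mice whose numbers lie in the 500s they were 4 and 14, beside 14% and 15.8% of all genes (29.8% in all).

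Much of the balance between directions rested on the scaling of the libraries. With scaling by library size alone, the median log2 fold change over all genes was 0.28 and the split over all genes was 3915 higher and 870 lower, in place of 1855 and 1777. Under that scaling 9 of the 36 genes were higher and 5 were lower, while 29.7% of all genes were higher and 6.61% lower (36.3% in all), and their median log2 fold change was 0.14. The 4 higher genes, together with Bnip3, Wipi1, Atg2a, Bnip3l and Lamp2, passed the threshold in the same direction under each of the 17 alternative settings run. The remaining 6 lower genes (Ulk1, Ulk2, Atg5, Atg16l1, Map1lc3b and Lamp1) stayed below 0 under library size scaling but did not pass.

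**Figure D1:**
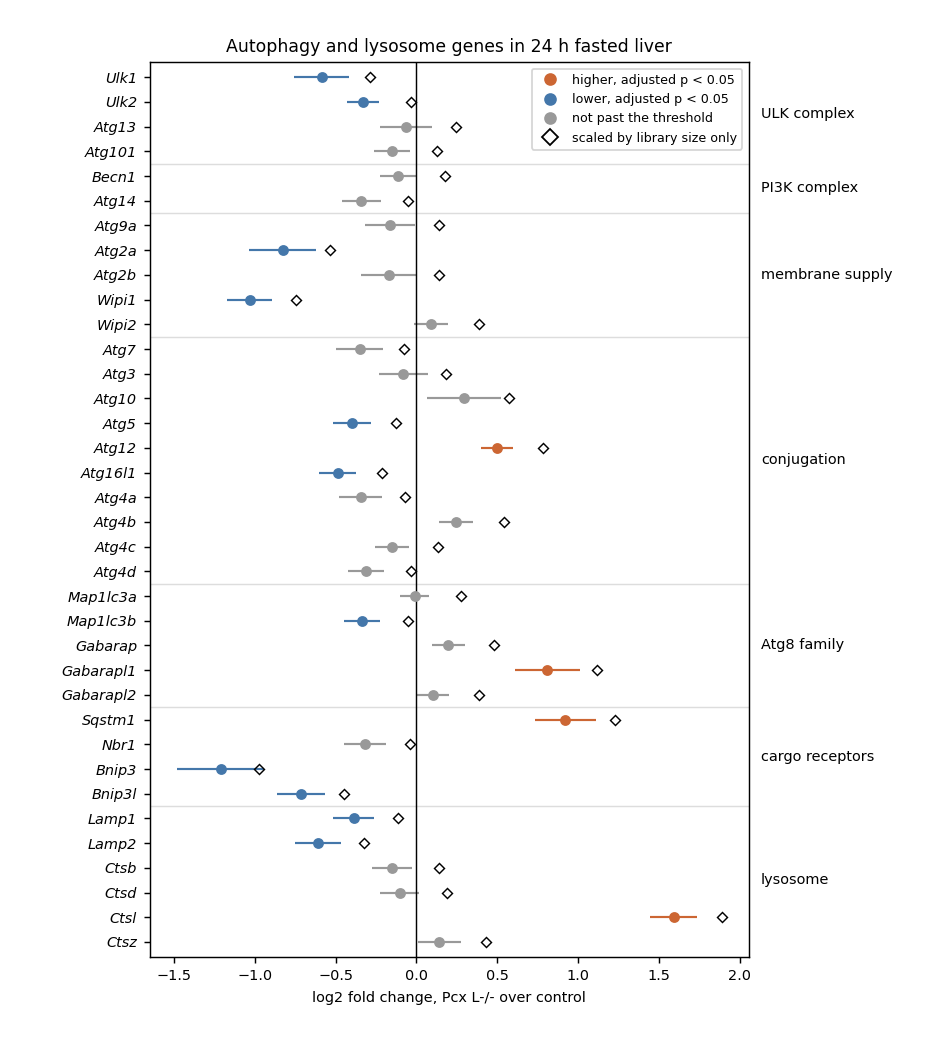
Log2 fold change of Pcx L-/- over control (x axis) for each of the 36 genes, grouped by role. Filled circles with bars give the TMM-scaled estimate and its standard error (n = 4 mice per genotype), coloured by call, and open diamonds give the estimate with scaling by library size only. Ctsl lies farthest to the right at 1.59 and Bnip3 farthest to the left at -1.21, and the diamonds sit to the right of the circles throughout.

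Promoter sequences are shown for the called genes with the largest changes in each direction, so that the upstream regions of genes that rose and genes that fell can be read side by side. They are the 250 bases before the RefSeq start (GRCm38.p6), written 5′ to 3′ on the strand of the gene. Sqstm1 (chr11:50210821-50211070, minus strand) and Gabarapl1 (chr6:129532942-129533191, plus strand) were higher. Bnip3 (chr7:138909507-138909756, minus strand), Wipi1 (chr11:109611390-109611639, minus strand) and Atg2a (chr19:6241418-6241667, plus strand) were lower. The Wipi1 window lies wholly inside the gene span given below, so it precedes an inner start and not the outermost start of that gene. Capitals mark CACGTG, the palindromic E-box core that TFEB-type and other basic helix-loop-helix factors can bind.
Sqstm1: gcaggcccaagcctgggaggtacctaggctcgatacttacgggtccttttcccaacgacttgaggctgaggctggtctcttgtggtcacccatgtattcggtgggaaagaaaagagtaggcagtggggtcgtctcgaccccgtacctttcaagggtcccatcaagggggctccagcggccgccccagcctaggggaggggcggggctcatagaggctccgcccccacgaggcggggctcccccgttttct
Gabarapl1: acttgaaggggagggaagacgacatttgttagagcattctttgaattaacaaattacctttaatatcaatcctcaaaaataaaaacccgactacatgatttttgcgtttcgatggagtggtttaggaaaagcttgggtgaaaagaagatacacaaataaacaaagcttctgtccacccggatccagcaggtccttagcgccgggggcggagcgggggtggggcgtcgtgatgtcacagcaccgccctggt
Bnip3: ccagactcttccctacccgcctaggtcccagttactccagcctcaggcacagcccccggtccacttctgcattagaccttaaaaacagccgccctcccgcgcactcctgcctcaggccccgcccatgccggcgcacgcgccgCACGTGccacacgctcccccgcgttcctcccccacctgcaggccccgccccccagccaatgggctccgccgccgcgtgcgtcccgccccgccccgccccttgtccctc
Wipi1: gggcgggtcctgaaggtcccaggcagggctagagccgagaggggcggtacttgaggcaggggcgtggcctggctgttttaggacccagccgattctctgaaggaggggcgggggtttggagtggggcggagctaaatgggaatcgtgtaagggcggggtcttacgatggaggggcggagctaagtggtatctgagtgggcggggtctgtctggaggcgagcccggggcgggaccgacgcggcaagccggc
Atg2a: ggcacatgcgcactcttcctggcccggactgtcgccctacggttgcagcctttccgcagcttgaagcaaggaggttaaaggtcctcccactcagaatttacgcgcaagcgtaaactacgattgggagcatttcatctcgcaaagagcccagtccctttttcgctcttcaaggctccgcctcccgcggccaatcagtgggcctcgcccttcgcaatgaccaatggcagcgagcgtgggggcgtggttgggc
The motif was searched on both strands, and among the 5 sequences shown it was found once, 108 bases before the start of Bnip3. Of the 36 genes, 27 had a window whose start lay within 50 bases of a GENCODE M21 transcript start, and 5 of these 27 held CACGTG, namely Bnip3, Lamp1, Atg5, Atg3 and Ctsd. Of all 32851 promoter entries searched, with no such limit on the start, 6.02% held it. The 27 genes had 29 windows, and a gene was counted when any of its windows held the motif. Shares of genes and of entries, here and below, are therefore not strictly alike. The shorter core ACGTG, which lies within CACGTG, was in 10 of the 27 genes and in 16.6% of all promoters. TGATGNAA, the core of the composite element read by ATF4 with C/EBP partners, was in 0 of the 27 and in 3.45% of all promoters. The window of Ctsl is not shown, because its start lay 214 bases from the nearest transcript start.

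Among the 4 genes of the ULK kinase complex, which starts autophagosome formation, both kinases were lower and their partners Atg13 and Atg101 were not called. That was 50% called in a list of only 4 genes, beside 27.6% of all genes tested. Ulk1 (chr5:110784488-110810097) encodes the main initiating kinase, and its normalized counts were 1825, 1677, 2378 and 2860 in control replicates 1 to 4 and 1464, 1495, 1637 and 1223 in Pcx L-/- replicates 1 to 4. The genotypes did not overlap, but the lowest control mouse lay close to the highest Pcx L-/- mouse. The log2 fold change was -0.59 ± 0.17 (SE, n = 4 per genotype) with an edgeR adjusted p of 0.0259. Ulk2, the related kinase, was at 1121, 1106, 1218 and 1339 in control mice and at 903, 1027, 930 and 943 in Pcx L-/- mice. All 4 Pcx L-/- values were below all control values, with a log2 fold change of -0.33 ± 0.10 and an edgeR adjusted p of 0.0316. Neither call held throughout when single mice were left out. The edgeR adjusted p of Ulk1 was 0.0717 without control replicate 3, 0.0588 without Pcx L-/- replicate 2 and 0.0882 without Pcx L-/- replicate 4. That of Ulk2 was 0.0796 without control replicate 3 and 0.0502, 0.0897 and 0.0896 without Pcx L-/- replicates 2, 3 and 4. Atg13, a scaffold of the complex, had a log2 fold change of -0.06, and Atg101, its partner, one of -0.15.

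The 2 genes of the PI3-kinase complex were not called. Becn1, the core subunit Beclin 1, had a log2 fold change of -0.11 ± 0.11. Atg14, the subunit that directs the complex to autophagy, had one of -0.34 ± 0.12 with an edgeR adjusted p of 0.0552, just outside the threshold. Without control replicate 4 that adjusted p was 0.0404 and without Pcx L-/- replicate 2 it was 0.0449. With the mouse number series as a covariate it was 0.0422.

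In the membrane supply group 1 paralog of each pair was lower while the other was not called. Of the 5 genes 40% were called, beside 27.6% of all genes tested. Wipi1 (chr11:109573331-109611967), a phosphoinositide-binding protein of the growing membrane, was at 371, 343, 326 and 479 normalized counts in control mice and at 209, 179, 167 and 185 in Pcx L-/- mice. The highest Pcx L-/- mouse lay well below the lowest control mouse, and the log2 fold change was -1.03 ± 0.14 with an edgeR adjusted p of 0.000971. Wipi2, the form that recruits the conjugation machinery, had a log2 fold change of 0.09 ± 0.11 under TMM scaling and of 0.38, past the threshold, under library size scaling. Atg2a (chr19:6241668-6262335), which transfers lipids into the growing membrane, was at 2230, 1489, 1964 and 3163 in control mice and at 1497, 1283, 1162 and 1035 in Pcx L-/- mice. These values overlapped, since Pcx L-/- replicate 1 lay above control replicate 2. Atg2a had a log2 fold change of -0.83 ± 0.21 with an edgeR adjusted p of 0.0133. Its paralog Atg2b and the lipid scramblase Atg9a were not called, with log2 fold changes of -0.17 and -0.16.

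Among the 10 conjugation genes 3 were called (30%, near the 27.6% of all genes tested). Their products form the unit that places Atg8 proteins on the membrane, and 1 was higher and 2 were lower. Atg12 (chr18:46730144-46741580), the ubiquitin-like protein itself, was at 508, 529, 500 and 462 normalized counts in control mice and at 664, 786, 668 and 708 in Pcx L-/- mice. All Pcx L-/- values were above all control values, and the log2 fold change was 0.50 ± 0.10 with an edgeR adjusted p of 0.00485. Atg5 (chr10:44268358-44364291), the protein to which Atg12 is joined, was at 887, 962, 838 and 906 in control mice and at 844, 620, 642 and 623 in Pcx L-/- mice. Pcx L-/- replicate 1 lay among the controls and the other 3 Pcx L-/- mice lay below them. Atg5 had a log2 fold change of -0.40 ± 0.12 with an edgeR adjusted p of 0.0302, which rose to between 0.0624 and 0.0992 without control replicate 1 or 2 or without Pcx L-/- replicate 2, 3 or 4. Atg16l1 (chr1:87755870-87792428), which anchors the pair to the membrane, was at 782, 658, 828 and 681 in control mice and at 595, 483, 528 and 497 in Pcx L-/- mice. The genotypes did not overlap, and the log2 fold change was -0.49 ± 0.11 with an edgeR adjusted p of 0.00995.

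The enzymes that drive conjugation were not called. Atg7, the E1-like enzyme that serves both systems, had a log2 fold change of -0.35 ± 0.14, and the E2-like enzymes Atg3 and Atg10 had -0.08 ± 0.15 and 0.29 ± 0.23. Among the Atg4 proteases, which process Atg8 proteins and release them from membranes, the log2 fold changes were -0.34 for Atg4a, 0.25 for Atg4b, -0.15 for Atg4c and -0.31 for Atg4d. Without Pcx L-/- replicate 1, Atg7, Atg4a and Atg4d passed the threshold, with log2 fold changes of -0.49, -0.42 and -0.42 and edgeR adjusted p of 0.00965, 0.033 and 0.0058. Atg4b passed without control replicate 4, with a log2 fold change of 0.30 and an edgeR adjusted p of 0.0498.

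The 5 genes of the Atg8 family did not move together, with 1 higher, 1 lower and 3 not called. That was 40% called, beside 27.6% of all genes tested. These small proteins are linked to lipid on the autophagosome, and they fall into the LC3 genes (Map1lc3a and Map1lc3b) and the GABARAP genes (Gabarap, Gabarapl1 and Gabarapl2). Gabarapl1 (chr6:129533160-129542346) was at 5146, 5519, 5768 and 5159 normalized counts in control mice and at 6096, 12423, 8057 and 11275 in Pcx L-/- mice. All Pcx L-/- values were above the controls, but they were spread widely, with replicate 1 just above the highest control mouse. Its log2 fold change was 0.81 ± 0.20 with an edgeR adjusted p of 0.0135, and without Pcx L-/- replicate 1 it was 0.97. Map1lc3b (chr8:121590361-121598760), the LC3 gene most used as an autophagosome marker at the protein level, was at 2899, 2953, 2875 and 3225 in control mice and at 2673, 2358, 2310 and 2120 in Pcx L-/- mice. These groups did not overlap, and the log2 fold change was -0.34 ± 0.11 with an edgeR adjusted p of 0.0412.

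The lower call of Map1lc3b was lost in most fits with 7 mice. When a single mouse other than Pcx L-/- replicate 1 was left out, its edgeR adjusted p was between 0.0573 and 0.142. With the mouse number series as a covariate it was 0.0532. Map1lc3b also overlaps Zcchc14 on the opposite strand, which had 6751 reads over all libraries against 21515 for Map1lc3b, and the counting is not stated to use strand. Map1lc3a was at 1286, 1233, 1254 and 1242 in control mice and at 1245, 1284, 1170 and 1279 in Pcx L-/- mice. The genotypes of Map1lc3a overlapped, with a log2 fold change of -0.01 ± 0.09. Gabarap was at 2798, 2843, 3077 and 2646 in control mice and at 3416, 3139, 3143 and 3336 in Pcx L-/- mice. Its values did not overlap, yet its log2 fold change of 0.20 ± 0.10 had an edgeR adjusted p of 0.182. Gabarapl2 was at 754, 703, 737 and 669 in control mice and at 768, 776, 699 and 834 in Pcx L-/- mice, with a log2 fold change of 0.10 ± 0.10. Gabarap and Gabarapl2 passed the threshold as higher under library size scaling, with log2 fold changes of 0.48 and 0.39.

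Levels of the family were compared on the FPKM scale, which divides reads by gene length and by the library total. The family summed to 397 ± 31.8 FPKM in control mice and to 651 ± 144 FPKM in Pcx L-/- mice (SD, n = 4 each). FPKM carry the scaling by library total, so shares within a library are more readily compared. Gabarapl1 made up 40.0%, 41.8%, 41.9% and 40.7% of the family's FPKM in control mice and 42.1%, 60.9%, 51.2% and 58.0% in Pcx L-/- mice. Its share was thus even across the control mice and, in Pcx L-/- replicate 1, near the control share. Map1lc3b made up 9.73% ± 0.82 of the family in control mice and 5.93% ± 1.47 in Pcx L-/- mice. These family shares were not tested.

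**Figure D2:**
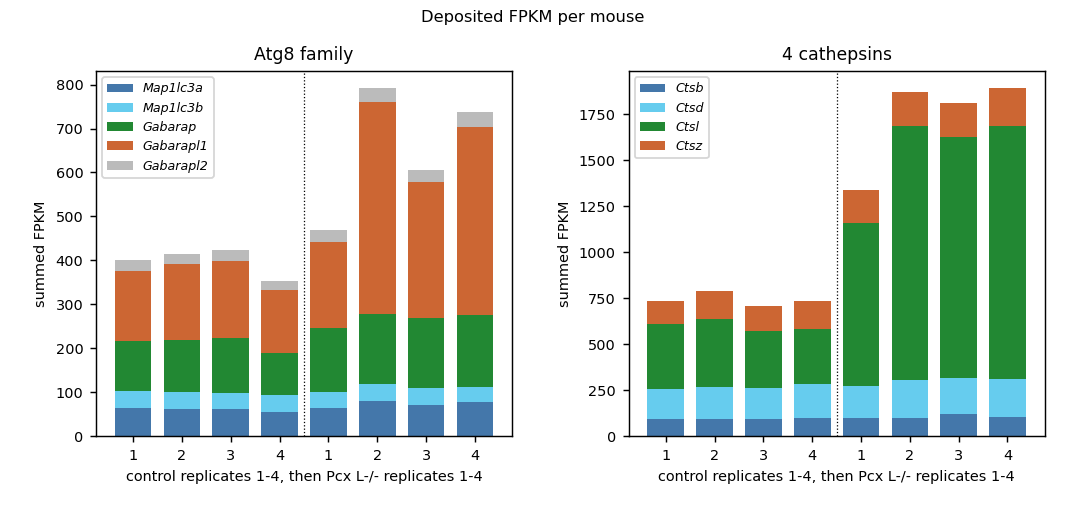
Deposited FPKM per mouse (y axis) for the Atg8 family (left) and for the 4 cathepsins Ctsb, Ctsd, Ctsl and Ctsz (right), stacked by gene, with the control mice left of the dotted line and the Pcx L-/- mice right of it. Gabarapl1 makes up most of the mean difference in bar height on the left, and Ctsl on the right, where its share is 45.1% on average in control mice and 71.3% in Pcx L-/- mice.

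Of the 4 cargo receptors 1 was higher and 2 were lower. That was 75% called in a list of only 4 genes, beside 27.6% of all genes tested. Sqstm1 (chr11:50199366-50210827), which encodes p62, a receptor for ubiquitinated protein, was at 7293, 6332, 7981 and 8647 normalized counts in control mice and at 10167, 17682, 12609 and 16785 in Pcx L-/- mice. The lowest Pcx L-/- mouse was above the highest control mouse, and the log2 fold change was 0.92 ± 0.19 with an edgeR adjusted p of 0.00567. Nbr1, the receptor most like p62, was not called, with a log2 fold change of -0.32 ± 0.13. Without Pcx L-/- replicate 1, Nbr1 passed the threshold at -0.40 with an edgeR adjusted p of 0.0228.

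Both receptors that mark mitochondria for autophagy were lower. Bnip3 (chr7:138890836-138909519), a mitochondrial outer membrane protein that binds Atg8 proteins, was at 5413, 6496, 6016 and 5375 in control mice and at 4442, 1841, 1915 and 1861 in Pcx L-/- mice. Pcx L-/- replicates 2 to 4 lay close together, and replicate 1 lay between them and the controls. The log2 fold change of Bnip3 was -1.21 ± 0.27 with an edgeR adjusted p of 0.00814, and without replicate 1 it was -1.64. Bnip3l (chr14:66985239-67008877), the close relative also called NIX, was at 1652, 1740, 1731 and 1875 in control mice and at 1435, 859, 969 and 1004 in Pcx L-/- mice. Replicate 1 was again the Pcx L-/- mouse nearest to the controls, and the groups did not overlap. The log2 fold change of Bnip3l was -0.71 ± 0.15 with an edgeR adjusted p of 0.00627, and -0.89 without replicate 1.

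**Figure D3:**
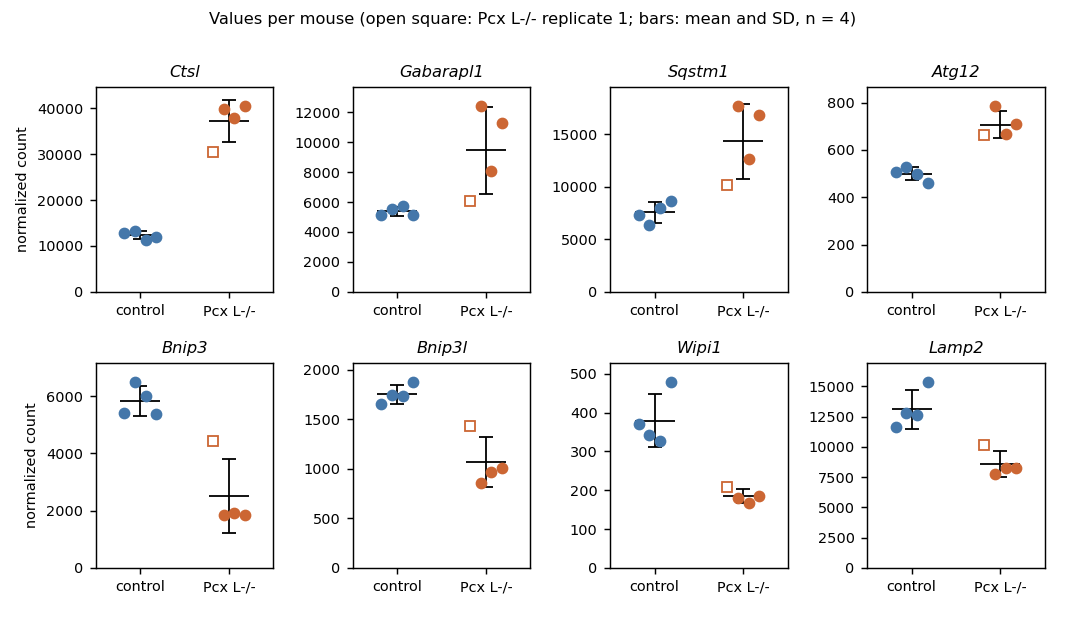
Normalized counts per mouse (y axis, from 0) for 8 of the called genes, with control mice in blue, Pcx L-/- mice in orange and Pcx L-/- replicate 1 as an open square. Black marks give the mean and SD of the 4 mice of a genotype. The genotypes do not overlap in any of the 8 panels, and the open square is the Pcx L-/- value nearest to the controls in each.

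At the lysosome, 1 cathepsin rose and both main membrane glycoproteins fell. Of these 6 genes 50% were called, beside 27.6% of all genes tested. Ctsl (chr13:64359337-64370890), which encodes the cysteine protease cathepsin L, showed the largest change of the 36 genes. It was at 12764, 13274, 11329 and 12000 normalized counts in control mice and at 30594, 39810, 37989 and 40553 in Pcx L-/- mice. Every Pcx L-/- value was more than 2-fold above every control value. The log2 fold change was 1.59 ± 0.15 with an edgeR adjusted p of 0.000169, and the range over the 17 alternatives was 1.55 to 1.89. On the FPKM scale Ctsl was at 335 ± 35.4 in control mice and at 1239 ± 238 in Pcx L-/- mice. Its rank by FPKM among the genes tested was 172 in control mice and 49 in Pcx L-/- mice. Ctsl alone made up 14.9% ± 1.34 of the summed FPKM of the 36 genes in control mice and 34.7% ± 2.84 in Pcx L-/- mice.

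The other 3 cathepsins were not called. Ctsb and Ctsd, which encode the abundant cathepsins B and D, had log2 fold changes of -0.15 ± 0.13 and -0.10 ± 0.12. Ctsz, which encodes cathepsin Z, had one of 0.14 ± 0.13 under TMM scaling and of 0.43, past the threshold, under library size scaling. Ctsb overlaps Fdft1 and Ctsz overlaps Nelfcd, both on the opposite strand, so their reads may be shared. The same holds for Atg9a with Ankzf1 (5520 reads over all libraries against 3174), Atg4d with Kri1 (4636 against 1508), Atg2b with Gskip (7962 against 2064), Atg4b with Thap4 (4344 against 1024) and Lamp1 with Grtp1 (73953 against 1998). Among the 4 cathepsins, the Ctsl share of the summed FPKM was between 40.6% and 48.5% in control mice and between 66.2% and 73.9% in Pcx L-/- mice, and this difference was not tested.

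Lamp2 (chrX:38401357-38456454), a membrane glycoprotein needed for fusion of autophagosomes with lysosomes, was at 11663, 12780, 12614 and 15369 normalized counts in control mice and at 10117, 7773, 8231 and 8237 in Pcx L-/- mice. All Pcx L-/- values were below the controls, with a log2 fold change of -0.61 ± 0.14 and an edgeR adjusted p of 0.0098. Lamp1 (chr8:13159161-13175338), the related glycoprotein, was at 10853, 9885, 10298 and 10743 in control mice and at 9466, 7444, 7454 and 7569 in Pcx L-/- mice. Its groups did not overlap either, with a log2 fold change of -0.39 ± 0.13 and an edgeR adjusted p of 0.0423. That call was lost when any single mouse other than Pcx L-/- replicate 1 was left out, with edgeR adjusted p between 0.0534 and 0.13. With the mouse number series as a covariate it was 0.0545.

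Over the 36 genes the levels spanned a wide range in control liver. Ctsl, Lamp1, Lamp2, Bnip3 and Ctsd were the 5 highest by FPKM, and Atg10 was the lowest at 1.73 ± 0.44 FPKM. Neighbours in this order mostly overlapped between mice, while the control values of Ctsl (299 to 373 FPKM) lay wholly above those of Lamp1 (234 to 264 FPKM). By mean FPKM in Pcx L-/- liver Gabarapl1 and Sqstm1 followed Ctsl, with 354 ± 127 and 353 ± 107 FPKM. They had stood at 163 ± 15.3 and 150 ± 13.7 FPKM in control liver. In Pcx L-/- replicate 1 both lay below Lamp1 (197 and 217 against 240 FPKM). Differences in FPKM between genotypes carry the scaling by library total. Bnip3 went from the fourth to the tenth place, from 178 ± 23.5 to 90.3 ± 36.1 FPKM. The ULK complex and conjugation genes were at lower levels, and the highest of them in control liver was Atg3 at 32.5 ± 7.62 FPKM.

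Shares between paralogs do not depend on the scaling of a library, and 8 were tested over the 8 mice by an exact two-sided permutation test. The smallest p that 4 mice against 4 can give is 0.0286. With Benjamini-Hochberg adjustment over the 8 shares no value went below 0.0762, so none passed 0.05. A share at that smallest p could pass only if more of the 8 shares had reached it too. Failing to pass can therefore not be read as no difference in a single share. The groups did not overlap in 3 shares. The Wipi1 share of Wipi1 and Wipi2 was 23.9% ± 1.49 in control mice and 12.6% ± 1.12 in Pcx L-/- mice. The Map1lc3b share of both LC3 genes was 39.0% ± 1.51 and 33.8% ± 2.45. The Atg4b share of the 4 Atg4 genes was 20.9% ± 1.33 and 27.8% ± 3.32. Each of these had an exact permutation p of 0.0286 and an adjusted p of 0.0762. Map1lc3b, Atg4b and Atg4d overlap other genes, as given above, and their reads may be shared.

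The other 5 shares overlapped. Gabarapl1 made up 54.7% ± 0.81 of the 3 GABARAP genes in control mice and 64.0% ± 7.89 in Pcx L-/- mice, with an exact permutation p of 0.143. Bnip3 made up 86.0% ± 1.37 of the sum of Bnip3 and Bnip3l in control mice and 80.3% ± 3.41 in Pcx L-/- mice, with an exact permutation p of 0.0571. The exact permutation p was 0.0857 for Atg2a (76.7% and 67.7% of both Atg2 genes), 0.0857 for Lamp1 (56.1% and 59.8% of both Lamp genes) and 0.171 for Ulk1 (66.3% and 62.6% of both Ulk genes).

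The 21 genes that were not called had log2 fold changes between -0.35 and 0.29, 15 below 0 and 6 above, with edgeR adjusted p from 0.0552 to 0.939. Among the 15 called genes, Pcx L-/- replicate 1 was the mouse of its genotype nearest to the controls in 13. Mice with numbers in the 500s were control replicates 1 and 2 and Pcx L-/- replicate 1, and the labels do not say what the number series mean. Within the 800s mice the log2 difference was 1.76 for Ctsl, -1.60 for Bnip3, 0.93 for Gabarapl1 and 0.90 for Sqstm1. Within the 500s mice it was 1.23, -0.42, 0.19 and 0.58, with 1 Pcx L-/- mouse and hence no test. The direction of all 15 called genes was the same in both number series. The mice of both series had entered the fit that made these calls, so this is not a separate replication.

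Other genes of the pathway were taken from 6 lists of 167 genes, of which 164 were tested, 24 were higher and 32 were lower (34.1% called, against 27.6% of all genes). These lists too were chosen with earlier results of these data known. Among genes of the lysosomal membrane and proton pump 12 of 29 were higher and 1 was lower, beside 14.1% and 13.5% of all genes, with a median log2 fold change of 0.20. With scaling by library size alone 21 were higher and 1 lower, beside 29.7% and 6.61% of all genes, with a median of 0.52. The 15 Atp6 genes encode parts of the proton pump that acidifies the lysosome and its accessory proteins. Of these, 8 were higher and 0 lower, beside 14.1% and 13.5% of all genes. With DESeq2 size factors 7 were higher, and with library size alone 13 were, beside 29.7% of all genes. Under TMM scaling Atp6v0e led them at 0.93 ± 0.13 and Atp6ap1 was the lowest called at 0.32. Cd63, a tetraspanin of late endosomes and lysosomes, was at 105, 102, 96.7 and 73 normalized counts in control mice and at 135, 508, 617 and 430 in Pcx L-/- mice, with a log2 fold change of 2.16 ± 0.37 and an edgeR adjusted p of 0.00254. Pcx L-/- replicate 1 lay just above the controls for Cd63, and the other 3 mice lay far above. Cln3, a membrane protein lost in a childhood lysosomal storage disease, was higher at 0.61 ± 0.16, and the sialic acid exporter Slc17a5 was lower at -0.67 ± 0.12.

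Among the other lysosomal hydrolases 1 of 38 was higher and 12 were lower, beside 14.1% and 13.5% of all genes, with a median of -0.22. With scaling by library size alone 3 were higher and 6 lower, beside 29.7% and 6.61% of all genes. The median was then 0.06, so the sign of the median depended on the scaling. Hexa, a subunit of beta-hexosaminidase, was higher at 0.65 ± 0.14. Ctsk, at 16.4, 17.3, 14 and 15.3 normalized counts in control mice and 3.8, 3.8, 11.7 and 6.9 in Pcx L-/- mice, was lower at -1.24 ± 0.39. The aminopeptidase gene Ctsh was lower at -0.93 ± 0.17 and the beta-galactosidase gene Glb1 at -0.82 ± 0.18.

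Of the other autophagosome genes, 3 of 28 were higher and 5 lower (28.6% called, near the 27.6% of all genes), with a median of -0.17. Under library size scaling 9 were higher and 1 lower, beside 29.7% and 6.61% of all genes. Epg5, a tether for fusion with lysosomes, was higher at 0.90 ± 0.20, and the scramblases Vmp1 and Tmem41b at 0.52 ± 0.15 and 0.41 ± 0.11. Zfyve1, which marks the sites where autophagosomes form, was lower at -0.80 ± 0.10, and Uvrag and Rb1cc1 at -0.45 ± 0.11 and -0.35 ± 0.12. Rb1cc1 encodes FIP200, the remaining partner of the ULK kinases described above. Of the other cargo receptors, 1 of 16 was higher and 4 lower (31.25% called), with a median of -0.10. Under library size scaling 4 of the 16 were higher and 1 lower, beside the same 29.7% and 6.61% of all genes. Stbd1, which binds glycogen, was higher at 1.27 ± 0.21. Pink1, the kinase that marks damaged mitochondria, was lower at -0.82 ± 0.14, and the ferritin receptor Ncoa4 and Calcoco1 at -0.54 ± 0.17 and -0.53 ± 0.13.

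Among nutrient signalling genes 6 of 35 were higher and 6 lower (34.3% called, against 27.6% of all genes), with a median of -0.0048. Under library size scaling 9 were higher and 1 lower, beside 29.7% and 6.61% of all genes. Prkab2, a regulatory subunit of AMPK, was higher at 1.63 ± 0.37, the Rag GTPase gene Rragd at 0.96 ± 0.30 and the Ragulator gene Lamtor3 at 0.66 ± 0.16. Castor2 was lower at -0.78 ± 0.22, the sestrin gene Sesn3 at -0.72 ± 0.24 and the folliculin partner gene Fnip2 at -0.70 ± 0.13. Of 18 transcription factors of the pathway 1 was higher and 4 lower (27.8% called, as among all genes), with a median of -0.28. Under library size scaling 1 of the 18 was higher and 1 lower, beside the same 29.7% and 6.61% of all genes. Ddit3, which encodes CHOP, was higher at 2.48 ± 0.42, with 71.9, 69.3, 114 and 86.6 normalized counts in control mice and 185, 801, 284 and 630 in Pcx L-/- mice. E2f1 was lower at -1.08 ± 0.32, Foxo4 at -0.62 ± 0.10 and the fasting regulator Ppara at -0.52 ± 0.13. Tfeb, the master regulator of lysosomal genes, was at 190, 208, 222 and 234 in control mice and 223, 131, 124 and 117 in Pcx L-/- mice, and its log2 fold change of -0.52 ± 0.20 did not pass (edgeR adjusted p of 0.0743). Its relative Tfe3 was not called either, with a log2 fold change of -0.16 ± 0.14.

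**Figure D4:**
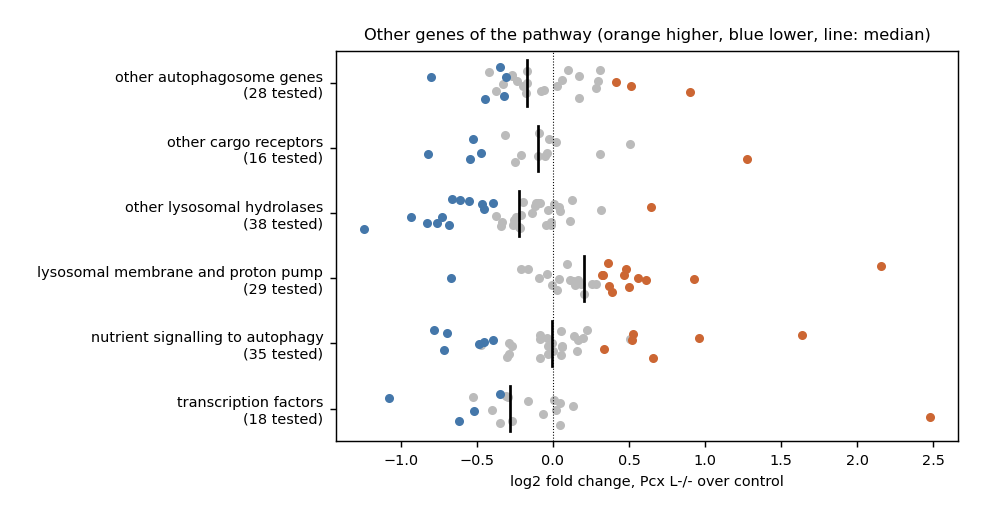
Log2 fold change of Pcx L-/- over control (x axis) for the tested genes of 6 further lists of the pathway, 1 point per gene with random vertical spread, coloured orange when higher and blue when lower at an adjusted p under 0.05. Black lines give the median of each list, which is 0.20 for the lysosomal membrane and proton pump and, under TMM scaling, -0.22 for the other hydrolases (0.06 under library size scaling).

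Since macrophages of the liver are also rich in lysosomes, their markers were read beside these genes. Of 14 macrophage markers 2 were higher, Cd68 at 0.86 ± 0.26 and Cd14 at 0.73 ± 0.22, and 0 were lower, so the share called higher (14.3%) was that of all genes (14.1%). Their summed normalized count was between 6722 and 9646 in control mice and between 7762 and 9809 in Pcx L-/- mice, and none of the markers was at 0. Of 11 endothelial and 10 stellate cell markers 0 were called. Of 5 cholangiocyte markers tested 1 was lower, Sox9 at -0.79 ± 0.22 with an edgeR adjusted p of 0.0226, and the list had a median of -0.51. The summed cholangiocyte count was between 131 and 181 in control mice and between 92 and 117 in Pcx L-/- mice, so the genotypes did not overlap. Of 4 lymphocyte and neutrophil markers and 5 red blood cell markers tested 0 were called. The part of other cells in the values of Ctsl, Lamp1, Lamp2 and Cd63 was not tested.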

How the data were processed

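Whole liver RNA of 4 Pcx L-/- and 4 control mice was sequenced, 1 library per mouse. The authors isolated total RNA with TRIzol and RNeasy columns, used Novogene for libraries and sequencing, and took mm10 (GRCm38) as the reference. They deposited, for each Ensembl gene, raw counts of reads and FPKM. The submitters' processing notes name STAR 2.5, HTSeq 0.6.1 and DESeq2. No source used here gives the strand setting or annotation release. The deposited FPKM equal the count divided by 1 length per gene and by the library total in all 21737 genes with a read, within a relative tolerance of 1e-06.

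Genotypes came from the sample labels, and symbols and positions from GENCODE M21. Genotypes were compared with edgeR 4.0.16 under R 4.3.3, using TMM scaling, filterByExpr (minimum count 10, minimum total 15), the quasi-likelihood F test on genotype and Benjamini-Hochberg adjustment over 13168 genes at 0.05. The biological coefficient of variation was 0.181. Normalized counts are counts divided by the TMM-scaled library size, times the geometric mean of these sizes. Standard errors are approximate. The p-values test the difference between genotypes against the spread between mice of a genotype. Pairs of libraries within a genotype had Spearman correlations from 0.973 to 0.993 and differed by more than counting noise, so none was counted as a duplicate. Steps were tested on simulated data.

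Alternatives were DESeq2 size factors, library size only, no filter, the DESeq2 1.42.0 Wald test, a replicate block, the mouse number series, limma 3.58.1 on log2(FPKM + 1) and log2(FPKM + 0.1) of the deposited FPKM, and leaving out each mouse. Leaving out the 500s mice was added after seeing the data. Counts of the other lists under other scalings were added later as well. The members and lists were chosen with earlier results of these data known. Per-mouse values are given for genes past the threshold and for the Atg8 family, and from each other list at most the 3 highest and 3 lowest called genes are named, with Tfeb and Tfe3. Values per mouse for Cd63, Ctsk, Ddit3 and Tfeb, and the names Atp6ap1, Sox9, Cd68 and Cd14, were picked after their values were seen. The same holds for the names Fkbp8, Fundc1, Phb2 and Bcl2l13. The Atp6 genes were part of a list and not a list set beforehand. Promoters came from a RefSeq table (GRCm38.p6), and were shown for up to 3 called genes per direction by size of change. Entries on chromosome 18, where Atg12 lies, were left out for the 36 genes, and 30 of the 36 then had an entry. Protein sequences were not used here.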

Additional observations from a re-analysis of the deposited data

Results flagged for a closer look

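Single mice far from the rest of their genotype were looked for in each of the 36 genes, with Dixon's ratio, the gap to the nearest other mouse over the whole range of the group. Of 72 groups of 4 mice, 6 exceeded the 95% critical value, and chance alone gives about 1 in 20. Of the 6, 3 were in Pcx L-/- replicate 1. For Bnip3 the ratio was 0.972, with 4442 normalized counts against 1841 to 1915 in the other 3 Pcx L-/- mice. For Lamp1 it was 0.938 (9466 against 7444 to 7569), and for Atg5 it was 0.903 (844 against 620 to 642). In control replicate 4, the library with the fewest reads, the ratio was 0.908 for Atg3 (896 against 1356 to 1402) and 0.901 for Ctsb (9470 against 8080 to 8217). In Pcx L-/- replicate 4 it was 0.868 for Atg10, the gene of lowest level, with 88.3 against 52.9 to 57.6.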

How the results depend on the processing

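The counts of 4 higher and 11 lower genes among the 36, and of 24 higher and 32 lower among the 164 tested genes of the other lists, depended on the scaling. With library size only, 9 of the 36 genes were higher and 5 lower, and 47 and 11 of the others. Among all genes tested 29.7% were higher and 6.61% lower under that scaling. The limma fits on log2(FPKM + 1) and on log2(FPKM + 0.1), which carry that same scaling, each gave 9 higher and 5 lower of the 36 and 47 higher and 12 lower of the others. The genes added as higher were Wipi2, Atg4b, Gabarap, Gabarapl2 and Ctsz in each of these 3 fits. With the replicate block 7 of the 36 genes were lower and 4 higher, and 17 and 24 of the others were higher and lower. Mice with the same replicate number did not deviate together (r of 0.10, -0.13, -0.10 and -0.07). Not every mouse correlated best with its own replicate number, so no pairing by replicate number was seen. Pairing by litter was not tested. With the mouse number series as a covariate 4 were higher and 10 lower, and 23 and 31 of the others, and Map1lc3b and Lamp1 lost their calls while Atg14 gained one. Without the filter 8 of the 36 were lower. DESeq2 size factors and the DESeq2 Wald test each gave 4 higher and 12 lower. Leaving out 1 mouse gave 4 to 5 higher and 6 to 15 lower of the 36, and 13 to 26 higher and 16 to 37 lower of the others. The lowest counts came without Pcx L-/- replicate 4 (6 lower, and 13 and 16 of the others). Without Pcx L-/- replicate 2 they were 7, 13 and 20, and without control replicate 3 or Pcx L-/- replicate 3 the count of lower genes was 7. A fit with 7 mice has fewer residual degrees of freedom. No called gene changed sign under any of the 17 alternatives, each of which used mice that had entered the calls. The differences in paralog share kept their sign when 1 mouse was left out or when counts replaced FPKM. Genes with few reads, such as Atg10 and Ctsk, are the least precisely measured.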
